A study of Mus musculus with 2 samples.

Results

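The transcripts of 38 genes of glucose uptake, glycolysis, lactate handling and glycogen metabolism were compared between brown fat of control mice and of mice with Rheb deleted in brown adipocytes. The 38 genes were chosen by symbol from these pathways, and all were found among the 54532 genes of the deposited table. Aldoa stood for 2 identifiers, of which the one with more reads was used (the other had 62 control and 14 knockout reads). The tissue was brown adipose tissue from between the shoulder blades (interscapular), a fat that burns fuel for heat, of 1-month-old C57BL/6J mice labelled male. The control group consisted of littermates with floxed Rheb alleles (rheb FL/FL), and the knockout group carried the same alleles together with Ucp1-cre, a Cre recombinase that acts where the Ucp1 promoter is active, in brown adipocytes. Cells without an active Ucp1 promoter are not targeted. Each group was 1 RNA-sequencing library from the pooled tissue of 3 mice, so no spread between mice was measured, no test was possible, and the intervals given are 95% counting intervals that cover counting error only.

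Glycolysis splits glucose into pyruvate in the cytosol. Glucose enters through transporters of the Slc2a family, is trapped by hexokinase, committed by phosphofructokinase and carried through a series of common steps to pyruvate, which lactate dehydrogenase interconverts with lactate. Glycogen is the storage polymer of glucose, started on glycogenin, extended by glycogen synthase, branched by the branching enzyme and taken apart by glycogen phosphorylase. Brown adipocytes take up much glucose when stimulated and hold glycogen, and skeletal muscle is the other tissue best known for this machinery. Several steps have a muscle-type isoform beside isoforms found in most other tissues. Rheb is the small GTPase that switches on the kinase complex mTORC1, a known regulator of glycolytic gene expression.

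The control library held 21855229 reads assigned to genes and the knockout library 23699316. Rheb itself had 1037 control and 568 knockout reads, a ratio of 0.553 (0.499 to 0.613) after scaling for library size. Sex-linked transcripts went against the shared male label, since Xist had 7452 control and 4 knockout reads, and the Y-linked gene Eif2s3y had 0 and 2653. The genotype and sex-linked expression therefore cannot be told apart in any difference below, and 2 of the 38 genes, Pgk1 and Pfkfb1, lie on the X chromosome. Of 14 brown adipocyte markers, all measured, 4 were higher and 3 lower in the knockout library. Of all measured genes 22.9% were higher and 22.9% lower. The summed levels of the brown adipocyte markers were 13947 CPM for the control tissue and 13580 CPM for the knockout tissue. CPM are reads per 1000000 assigned reads, scaled between libraries by TMM, the trimmed mean of M-values. Of 25 skeletal muscle markers, 24 were measured, and all 24 of these had lower knockout values. Their summed levels were 4447 CPM for the control tissue and 475 CPM for the knockout tissue. Tnnc2 was at 0 in both libraries. In such bulk libraries fewer cells of a type and less RNA per cell cannot be told apart. Of neutrophil, macrophage and erythroid markers, 5 of 10, 10 of 10 and 6 of 8 were measured. In the knockout library 5, 8 and 5 of these were higher, where 22.9% of all measured genes were. The neutrophil markers Retnlg (4 control and 48 knockout reads) and Cxcr2 (8 and 39) averaged 1 CPM only through the knockout library. Those not measured had few reads, among them Camp with 3 and 2 and Ngp with 1 and 8.

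Transcripts of the glucose pathway were shifted towards lower levels in the knockout library. A gene was counted as lower or higher where its scaled ratio reached 1.5-fold and its interval excluded 1. Of the 38 genes 17 were lower, 1 was higher and 20 lay in between, so that 44.7% were lower where 22.9% of all 12973 genes measured were lower and 22.9% were higher. Measured genes averaged 1 CPM or more across the libraries, as all 38 genes did. Of the genes counted as lower, Aldoc did so only through the control library. The median log2 ratio of knockout over control was -0.52 for the 38 genes and -0.003 for all genes measured. Among the 20 genes of the set with a mean of at least 100 CPM, 7 were lower and none was higher, a share of 35.0%, against 22.3% of 1071 genes at that level. Together the 38 genes took 2.78% of the reads in control and 2.01% in knockout tissue. The split depends on the scaling between the libraries. With total counts in place of TMM, 21 of the 38 were lower and none was higher, and all genes split into 2371 higher and 3695 lower where TMM gave 2968 and 2976. With total counts without mitochondrially encoded genes and the 20 highest genes, 14 were lower (36.8%), against 21.3% of all genes.

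**Figure D1:**
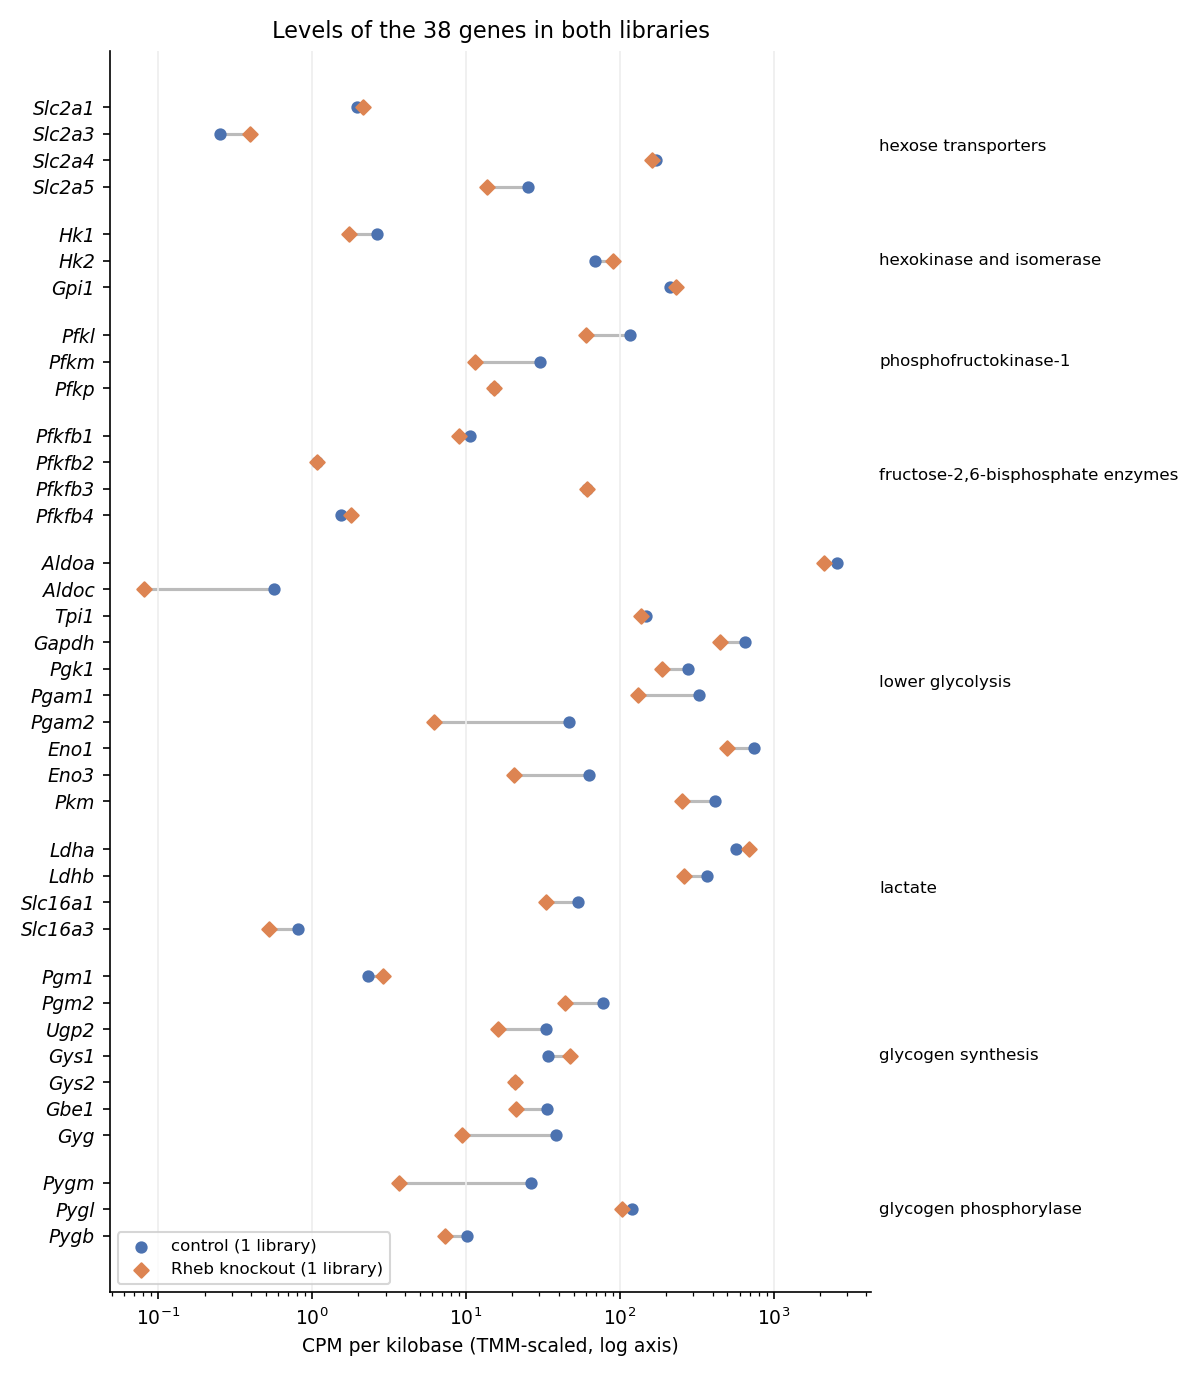
Level of each of the 38 genes in the control library (circles) and the Rheb knockout library (diamonds), in TMM-scaled CPM per kilobase of exon on a log axis, grouped by role. Each point is 1 library. The long connecting lines belong to Pgam2, Pygm, Gyg and Aldoc, while Slc2a4, Gpi1, Pfkp and Pfkfb3 lie nearly on top of each other.

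Glucose entry differed little in its main transporter. Slc2a4, the insulin-responsive transporter GLUT4, had 13639 control and 12663 knockout reads, a ratio of 0.938 (0.915 to 0.961). It was the most abundant hexose transporter of the set in both libraries, at 171 and 161 CPM per kilobase. Slc2a1, the widely expressed GLUT1, had 156 and 170 reads and a ratio of 1.10 (0.880 to 1.38), an interval that holds 1. Slc2a5, the fructose transporter GLUT5, had 1966 and 1046 reads, and its ratio of 0.537 (0.498 to 0.579) made it the only hexose transporter of the set counted as lower. Slc2a3, the GLUT3 transporter of neurons and leukocytes, had 42 and 65 reads and a ratio of 1.56 (1.04 to 2.36). It was the only gene counted as higher, and at total-count scaling its ratio was 1.43, below the threshold. Neutrophil markers were higher beside it, with summed levels of 6.43 CPM (control) and 54.0 CPM (knockout) and Mpo at 0 in both, and macrophage markers summed to 108 and 200 CPM. Their part in the Slc2a3 ratio was not tested.

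The first enzymes of glycolysis went in different directions. Hk2, the insulin-regulated hexokinase, had 9460 control and 12245 knockout reads, a ratio of 1.31 (1.27 to 1.34) that stayed below the 1.5-fold threshold. Hk1, the general hexokinase, had 516 and 335 reads and a ratio of 0.656 (0.570 to 0.754). Hk2 was the more abundant form in both libraries and accounted for 94.8% (94.4 to 95.3) of the hexokinase 1 and 2 reads in control and 97.3% (97.0 to 97.6) in knockout tissue. Hk1 lay close to the threshold and was no longer counted as lower with total counts without mitochondrially encoded and highest genes (ratio 0.675), with a pseudocount of 2 CPM or at a threshold of 2-fold. Gpi1, which turns glucose 6-phosphate into fructose 6-phosphate, had 31491 and 33586 reads, a ratio of 1.08 (1.06 to 1.09) that fell on the other side of 1 with total counts (0.984). Gpi1 thus differed by less than 1.5-fold, at 213 and 230 CPM per kilobase.

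Phosphofructokinase-1, the committing step, was lower in 2 of its 3 subunit genes. Pfkl, the liver-type subunit and the most abundant of them here, had 17875 control and 9133 knockout reads, a ratio of 0.516 (0.503 to 0.529). Pfkm, the muscle-type subunit, had 2296 and 873 reads and a ratio of 0.384 (0.355 to 0.415). Pfkp, the platelet-type subunit, had 4630 and 4605 reads and a ratio of 1.00 (0.964 to 1.05). The summed reads of the step were 24801 and 14611, a ratio of 0.595 (0.583 to 0.607). The composition changed with it, since Pfkp made up 18.7% (18.2 to 19.2) of these reads in control and 31.5% (30.8 to 32.3) in knockout tissue, while Pfkl went from 72.1% (71.5 to 72.6) to 62.5% (61.7 to 63.3). Per kilobase, the shares of the long Pfkp were 9.31% and 17.4%, and those of Pfkl differed less, at 72.2% and 69.3%. Shares within a library do not depend on the scaling between libraries.

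The bifunctional enzymes that make and remove fructose 2,6-bisphosphate, the allosteric activator of phosphofructokinase-1, did not pass the size rule in either direction. Pfkfb3, the inducible and by far the most abundant form here, had 10570 control and 10390 knockout reads, a ratio of 0.993 (0.966 to 1.02). Pfkfb1, the form known from liver and muscle, had 973 and 813 reads, Pfkfb2, the heart form, 179 and 175, and Pfkfb4 172 and 199. Their ratios lay between 0.844 for Pfkfb1 and 1.17 for Pfkfb4, and the intervals of Pfkfb2, Pfkfb3 and Pfkfb4 hold 1. Pfkfb1 is X-linked, and its interval was 0.768 to 0.927. In Pfkfb2, 26.1% of the 50-base stretches of its longest transcript also occur in another annotated transcript, Gm29427, which had no reads in either library.

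In the later steps of the pathway every gene had a point ratio below 1, and 6 of 10 were counted as lower, where 22.9% of all measured genes were. Aldoa, the main aldolase and the gene of the set with the highest level, had 170745 control and 139221 knockout reads, a ratio of 0.823 (0.818 to 0.829). Tpi1, triose phosphate isomerase, had 9274 and 8529 reads and a ratio of 0.929 (0.902 to 0.957). Aldoc, the brain-type aldolase, was scarcely detected, with 42 and 6 reads, and its ratio of 0.144 (0.0501 to 0.341) rests on few reads. It averaged 1 CPM only through the control library (1.84 CPM, knockout 0.265 CPM), yet it is among the 6 genes counted as lower here. Both of the abundant genes of this stretch, Aldoa and Tpi1, therefore differed by less than 1.5-fold.

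Gapdh, which oxidizes glyceraldehyde 3-phosphate, had 61757 control and 41689 knockout reads, a ratio of 0.682 (0.673 to 0.690). Pgk1, phosphoglycerate kinase and X-linked, had 14176 and 9588 reads and a ratio of 0.683 (0.666 to 0.701). Eno1, the general enolase, had 91615 and 60282 reads and a ratio of 0.665 (0.658 to 0.671). These ratios lie around the 1.5-fold threshold, so that Eno1 was counted as lower and Gapdh and Pgk1 were not. With total counts Gapdh (0.623) and Pgk1 (0.624) were counted as lower too, and with total counts without mitochondrially encoded and highest genes Eno1 (0.684) was not. Pkm, the pyruvate kinase of muscle and most other tissues, had 47238 and 28493 reads, a ratio of 0.609 (0.600 to 0.618). Pgam1, the general phosphoglycerate mutase, had 13638 and 5432 reads and a ratio of 0.402 (0.390 to 0.415), the smallest among the genes of the set with a mean of at least 100 CPM. Pgam1 was thus 2.49-fold lower, further from 1 than Pgk1 and Eno1, the general genes of the steps before and after it.

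Several of these genes have near-identical copies in the genome, and how reads that match several places were assigned is not given in the sources used here. Of the 50-base stretches of the longest transcript, 72.2% in Eno1, 68.0% in Pgk1, 41.5% in Pgam1, 34.4% in Pkm and 27.8% in Gapdh also occur in other annotated transcripts. The copy that shares most with Gapdh, Gm7336, had 24936 control and 16887 knockout reads. Pgam1-ps2 had 1137 and 277 reads beside Pgam1, and Eno1b had 2266 and 3341 beside Eno1. Summing each gene with that copy gave ratios of 0.682 for Gapdh, 0.390 for Pgam1, 0.684 for Eno1, 0.682 for Pgk1 and 0.610 for Pkm, and of these calls only that of Eno1 changed. Without strand, reads of overlapping genes cannot be separated either. Of the exonic bases, 15.3% in Pkm overlap another gene, mostly AC160637.1 (835 and 277 reads), and 10.7% in Pfkm, mostly Gm26513 (13 and 1 reads). The share of stretches found elsewhere was 0.460% in Pygm, all of it with Pygb, and 0% in Pfkm, Pgam2 and Eno3.

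At the lactate end the A and B chains diverged. Ldha, the chain that favours lactate formation, had 42676 control and 51647 knockout reads, a ratio of 1.22 (1.21 to 1.24). Ldhb, the chain typical of heart, had 13133 and 9277 reads and a ratio of 0.713 (0.695 to 0.733). Neither reached 1.5-fold. Ldhb made up 23.5% (23.2 to 23.9) of the reads of both chains in control and 15.2% (14.9 to 15.5) in knockout tissue, or 39.3% and 27.5% per kilobase. Slc16a1, the monocarboxylate transporter MCT1 that carries lactate and pyruvate, had 5397 and 3317 reads and a ratio of 0.621 (0.594 to 0.648). Slc16a3, the exporter MCT4 of glycolytic muscle, was low in both libraries with 98 and 63 reads and a ratio of 0.649 (0.465 to 0.900). Both transporters were counted as lower, but neither call held at every setting. Adjustment for GC content ended that of Slc16a1 (log2 ratio -0.55), and total counts without mitochondrially encoded and highest genes (ratio 0.669) or a pseudocount of 2 CPM ended that of Slc16a3.

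**Figure D2:**
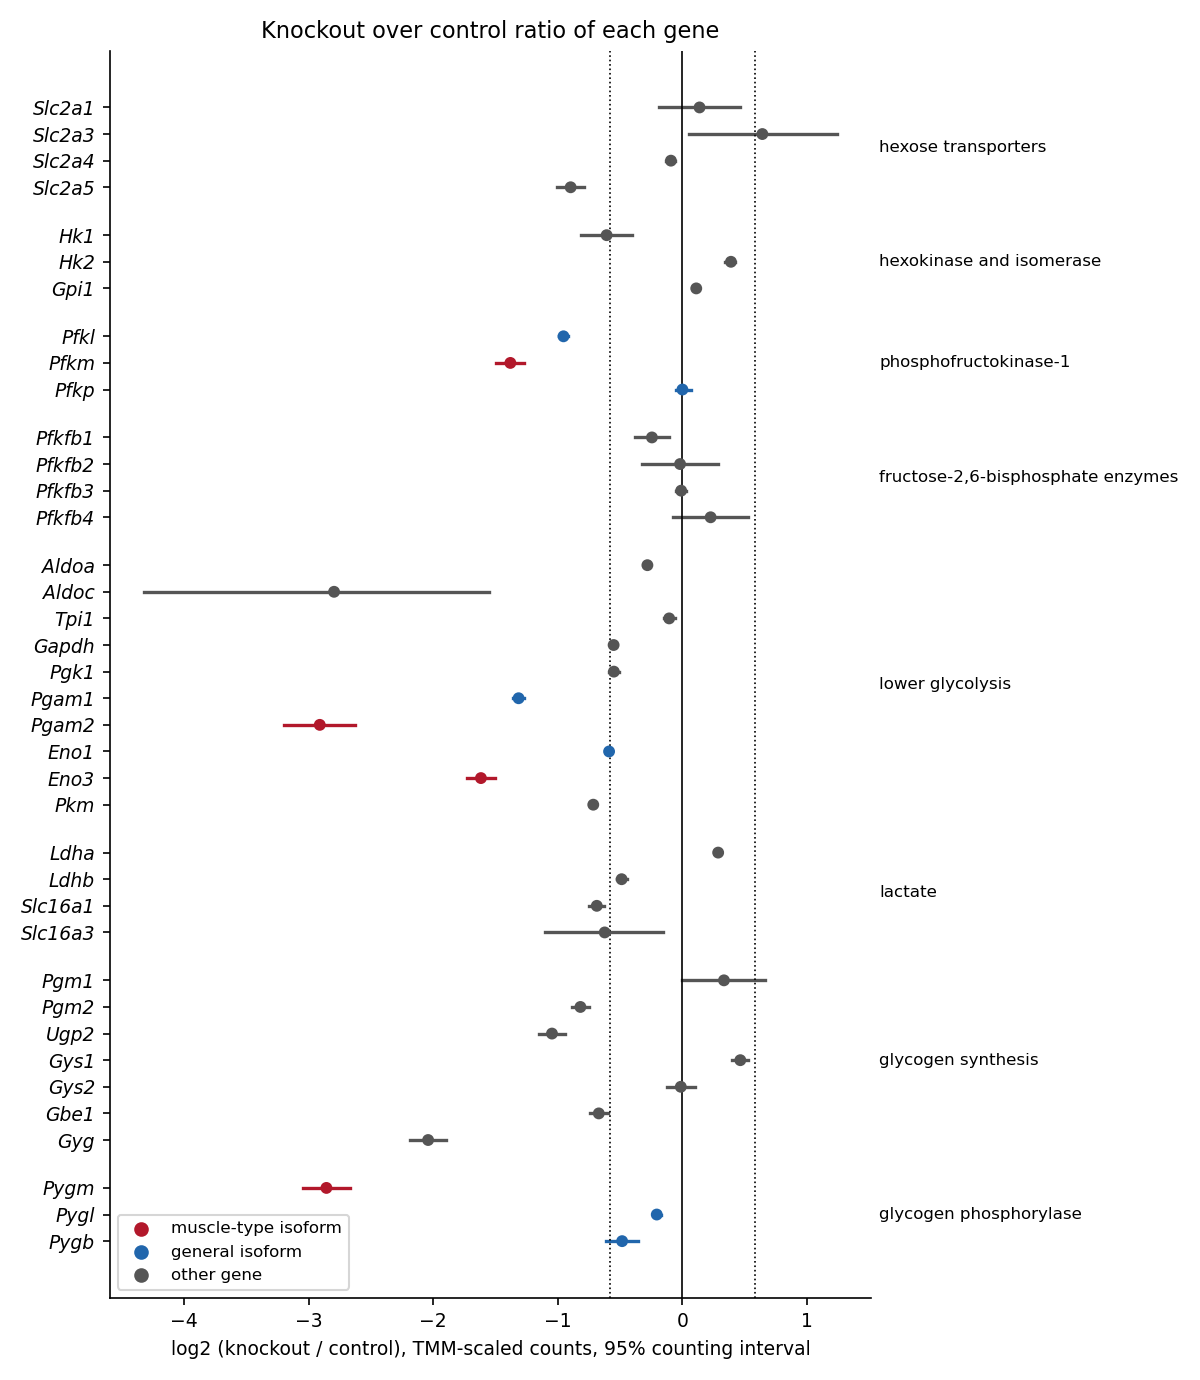
Log2 ratio of knockout over control for each of the 38 genes, from TMM-scaled counts without a pseudocount, with 95% counting intervals that do not include differences between mice. Red points are muscle-type isoforms, blue points general isoforms of the same steps, grey points all other genes, and dotted lines mark 1.5-fold. The 4 red points lie left of the blue points of their steps, and Slc2a3 alone lies right of the upper dotted line.

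Glycogen genes differed by step. Gyg, glycogenin, the protein primer on which a glycogen particle starts, had 2070 control and 498 knockout reads and was 4.12-fold lower (3.73 to 4.55). Ugp2, which makes the glucose donor UDP-glucose, had 2336 and 1119 reads and was 2.07-fold lower (1.92 to 2.22). Gbe1, the branching enzyme, had 4136 and 2573 reads and a ratio of 0.628 (0.598 to 0.660). Gys1, the glycogen synthase of muscle and most tissues, went the other way with 3735 and 5110 reads, a ratio of 1.38 (1.32 to 1.44) that did not reach 1.5-fold. Gys2, the liver-type synthase, had 1268 and 1244 reads and a ratio of 0.991 (0.916 to 1.07). The enzymes of synthesis thus did not move together, with the primer, the UDP-glucose enzyme and the branching enzyme lower and neither synthase lower. Adjustment for GC content ended the call of the branching enzyme Gbe1 (log2 ratio -0.47). Gys1 made up 74.7% (73.4 to 75.9) of the synthase reads in control and 80.4% (79.4 to 81.4) in knockout tissue.

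Phosphoglucomutase joins glycogen to glycolysis by moving the phosphate of glucose phosphate. The gene that the table calls Pgm2, on chromosome 4, is named Pgm1 by RefSeq, and that called Pgm1, on chromosome 5, is RefSeq's Pgm2, so the table's names are kept here with their chromosomes. The chromosome 4 gene had 5169 control and 2904 knockout reads, a ratio of 0.567 (0.542 to 0.594). The chromosome 5 gene had 136 and 169 reads and a ratio of 1.26 (0.995 to 1.58), an interval that holds 1. The chromosome 4 gene was the more abundant of the pair, at 77.4 and 43.9 CPM per kilobase against 2.30 and 2.88.

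Of the glycogen phosphorylases only the muscle-type gene was counted as lower. Pygm had 1940 control and 266 knockout reads and was 7.22-fold lower (6.35 to 8.24). Pygl, the liver-type and most abundant form here, had 18736 and 16086 reads, a ratio of 0.867 (0.849 to 0.886). Pygb, the brain-type form, had 1122 and 794 reads and a ratio of 0.715 (0.652 to 0.783), and with total counts it was counted as lower at 0.653. The summed reads of the step were 21798 and 17146, a ratio of 0.794 (0.779 to 0.811). Over all 10 glycogen genes 5 were lower and 5 were neither, at a median log2 ratio of -0.57, where 22.9% of all measured genes were lower.

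The muscle-type isoforms as a group were further from 1 than the general isoforms. Pgam2, the muscle phosphoglycerate mutase (chromosome 11, 5801640 to 5803733, minus strand, mm10), had 894 control and 118 knockout reads and was 7.50-fold lower (6.19 to 9.17). Eno3, the muscle enolase (chromosome 11, 70657202 to 70662513, plus strand), had 2495 and 806 reads and was 3.07-fold lower (2.83 to 3.32). Pygm (chromosome 19, 6384399 to 6398459, plus strand) was given above, and Pfkm (chromosome 15, 98092589 to 98132451, plus strand) was 2.60-fold lower (2.41 to 2.82). All 4 were counted as lower, with a median log2 ratio of -2.20, where 22.9% of all measured genes were lower. Of the 6 general isoforms 3 were lower (Pfkl, Pgam1 and Eno1, not Pfkp, Pygl or Pygb), with a median of -0.53. In each step the muscle-type ratio lay below those of the general forms, and the counting intervals did not overlap. Without the 4 muscle-type genes, 13 of 34 genes (38.2%) were lower, against 22.9% of all measured genes, and the median was -0.38.

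The share of the muscle-type isoform in its step was lower in the knockout library for all 4 steps. Pgam2 made up 6.15% (5.77 to 6.55) of the mutase reads in control and 2.13% (1.76 to 2.54) in knockout tissue. Eno3 made up 2.65% (2.55 to 2.76) and 1.32% (1.23 to 1.41) of the enolase reads. For Pygm the share of the phosphorylase reads was 8.90% (8.53 to 9.29) and 1.55% (1.37 to 1.75). For Pfkm it was 9.26% (8.90 to 9.63) and 5.97% (5.60 to 6.37), the smallest relative difference among them. Divided by gene length, which weights the short muscle-type transcripts more, the shares were 12.5% and 4.52% for Pgam2, 7.77% and 3.97% for Eno3, 17.0% and 3.20% for Pygm, and 18.5% and 13.2% for Pfkm. The muscle-type forms were thus minor in both libraries on either scale, and the general genes set most of each step's total. The mutase total had 14532 and 5550 reads, a ratio of 0.386 (0.374 to 0.398), and the enolase total 94110 and 61088 reads, a ratio of 0.656 (0.649 to 0.662).

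**Figure D3:**
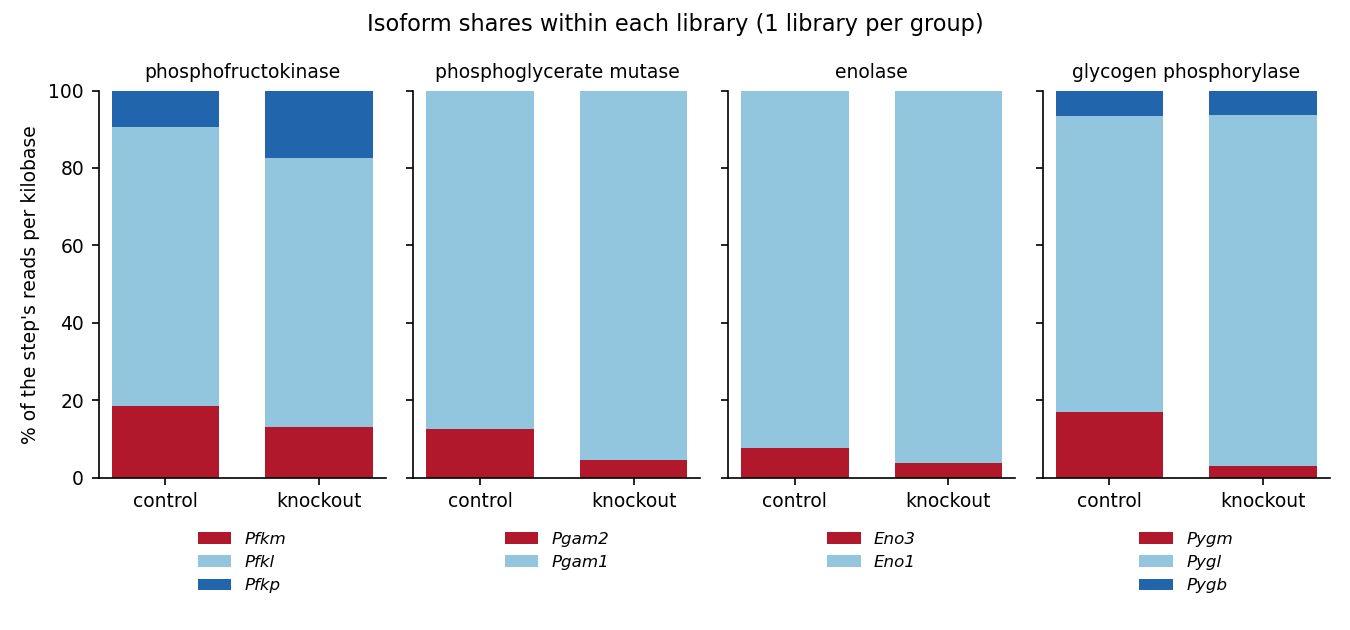
Share of each isoform in its step's reads per kilobase, in percent, in the control and the knockout library (1 library each, no error bars). Red is the muscle-type isoform, and blue shades are the general isoforms. The red part is smaller in the knockout bar of each of the 4 steps, from 17.0% to 3.20% for Pygm and from 18.5% to 13.2% for Pfkm.

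Skeletal muscle markers were lower beside these isoforms. The 24 measured markers had a median log2 ratio of -3.60, and single markers ranged from Myh7, the slow myosin heavy chain, with 4223 and 69 reads (60.6-fold lower), to Myl1, a fast myosin light chain, with 5391 and 1461 reads (3.65-fold lower). The ratios of Pygm (0.138) and Pgam2 (0.133) lay inside the range of the markers, and those of Eno3 (0.326) and Pfkm (0.384) lay above that of every marker, the highest of which was 0.274. For each 1000 reads of the 25 muscle markers, the control library had 8.79 reads of Pgam2 and the knockout library 11.0, a ratio of 1.25 (1.02 to 1.51). Pygm had 19.1 and 24.7 reads on that scale (1.30, 1.14 to 1.48), Eno3 24.5 and 75.0 (3.06, 2.82 to 3.31), Pfkm 22.6 and 81.2 (3.60, 3.32 to 3.89) and Gyg 20.4 and 46.3 (2.28, 2.06 to 2.51). Among other genes, the ratio on that scale was 3.77 (3.65 to 3.89) for Pgam1, 4.83 (4.71 to 4.96) for Pfkl and 12.9 (12.4 to 13.5) for Gys1. For Aldoc, with 42 and 6 reads, it was 1.35 (0.470 to 3.20). Intervals on that scale treat the summed marker reads as fixed and leave out the spread among the markers, from 3.65-fold to 60.6-fold lower. The part that muscle RNA has in any of these ratios was not tested.

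**Figure D4:**
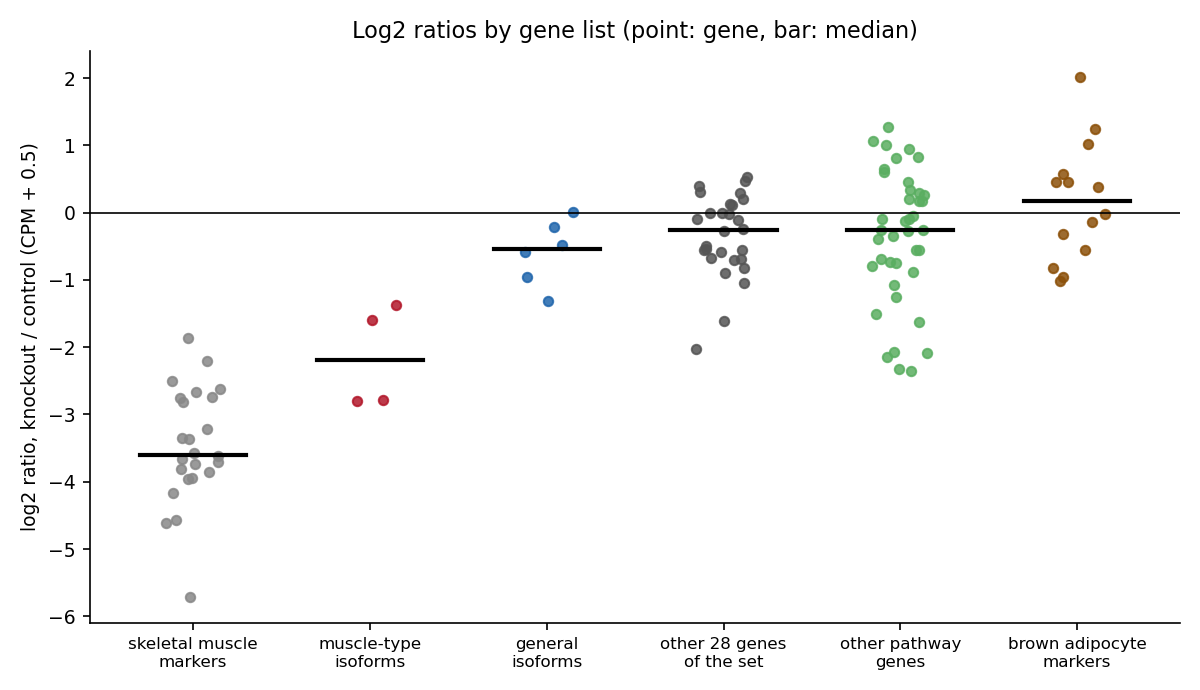
Log2 ratio of knockout over control (CPM plus 0.5) for the measured genes of 6 lists, each point 1 gene and each bar the list's median. The median of the muscle-type isoforms (-2.20) lies between those of the skeletal muscle markers (-3.60) and the general isoforms (-0.53). Single points do not all do so, since Pygm and Pgam2 lie within the range of the markers. The brown adipocyte markers lie on both sides of 0 with a median of 0.18.

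The upstream sequences of the muscle-type genes with the lowest ratios, Pgam2 and Pygm, are shown with those of the general genes of the same steps, Pgam1 and Pygl, because each pair differs within 1 enzymatic step. They are the 250 bases before the RefSeq transcription start on GRCm38.p6, the assembly of mm10, written 5′ to 3′ on the gene's strand. Capitals mark CAGCTG, an E-box hexamer that reads the same on both strands and that basic helix-loop-helix factors, among them those of the MyoD family, can bind.
Pgam2, chr11:5803797-5804046, minus strand: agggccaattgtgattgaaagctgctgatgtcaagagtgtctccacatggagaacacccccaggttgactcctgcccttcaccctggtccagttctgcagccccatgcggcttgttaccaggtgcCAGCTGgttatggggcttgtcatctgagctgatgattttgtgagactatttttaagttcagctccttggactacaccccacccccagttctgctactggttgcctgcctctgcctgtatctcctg
Pygm, chr19:6384158-6384407, plus strand: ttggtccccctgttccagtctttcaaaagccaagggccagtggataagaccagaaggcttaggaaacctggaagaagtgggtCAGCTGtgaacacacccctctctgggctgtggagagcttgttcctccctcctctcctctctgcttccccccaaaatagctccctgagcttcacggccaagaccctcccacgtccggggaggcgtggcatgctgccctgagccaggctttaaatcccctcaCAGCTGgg
Pgam1, chr19:41911621-41911870, plus strand: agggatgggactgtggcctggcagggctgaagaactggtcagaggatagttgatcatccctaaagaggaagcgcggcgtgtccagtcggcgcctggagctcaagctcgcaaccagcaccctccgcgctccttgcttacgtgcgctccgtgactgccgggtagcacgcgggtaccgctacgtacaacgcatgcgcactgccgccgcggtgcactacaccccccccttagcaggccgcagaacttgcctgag
Pygl, chr12:70227684-70227933, minus strand: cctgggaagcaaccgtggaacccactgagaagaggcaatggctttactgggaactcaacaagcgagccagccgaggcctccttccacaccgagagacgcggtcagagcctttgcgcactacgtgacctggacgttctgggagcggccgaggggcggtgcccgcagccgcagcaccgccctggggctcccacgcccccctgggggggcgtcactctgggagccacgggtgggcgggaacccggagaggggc
CAGCTG was found in the window of 2 of the 4 muscle-type genes, Pgam2 and Pygm, and of none of the 6 general genes. It was present in 8 of the 35 genes of the set with a RefSeq promoter entry and in 14.7% of 27025 genes with such a window. CACGTG, the E-box of the carbohydrate response factors and of the clock factors, was found in 5 of the 35 genes (14.3%), among them Pfkm, and in 6.86% of all genes. TATAAA, searched on both strands, was found in 2 of the 35 and in 14.3% of all genes. None of the 4 printed windows holds CACGTG or TATAAA, so no motifs overlap in them. The windows follow RefSeq starts, and that of Pygl lies inside the gene as the deposited table bounds it (chromosome 12, 70190811 to 70231488). The window of Pygm runs past 6384399, where the deposited table starts that gene. The second CAGCTG marked in it therefore lies within the table's bounds of Pygm and not upstream of them. The motifs were chosen after the sequences were seen, and a match describes letters and not a bound site.

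Other genes of glucose and glycogen handling, 53 in a second list, included more lower than higher genes. Of 40 measured, 15 were lower (37.5%), 8 were higher, and 17 were neither, where 22.9% of all measured genes were lower and 22.9% higher. Of the genes counted as lower, Ppp1r3a and Slc2a12 averaged 1 CPM only through the control library. Of those counted as higher, Hk3 and Eno2 did so only through the knockout library. The median log2 ratio of the 40 measured genes was -0.26. Lower genes included several regulators of glycogen. Ppp1r3c, a subunit that brings protein phosphatase 1 to glycogen, had 2144 control and 468 knockout reads, a ratio of 0.220 (0.199 to 0.244). Of the 7 Ppp1r3 genes listed, 5 were measured, and of these Ppp1r3b (5870 and 3341 reads, ratio 0.575) and Ppp1r3d (759 and 442, ratio 0.588) were lower too, as was Ppp1r3a, the muscle form, with 83 and 11 reads. Gsk3b, a kinase that inhibits glycogen synthase, had 1357 and 634 reads and a ratio of 0.472 (0.429 to 0.519). Phosphorylase kinase, which activates glycogen phosphorylase, was lower in its muscle-type catalytic subunit Phkg1 (211 and 32 reads, ratio 0.153) and in Phkb (873 and 512 reads, ratio 0.592), while Phka1, Phka2 and Phkg2 lay in between.

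Further lower genes of that list were Fbp2, the muscle fructose bisphosphatase, with 403 control and 71 knockout reads (ratio 0.178, 0.136 to 0.229), and Ldhd, the mitochondrial D-lactate dehydrogenase, with 1507 and 343 reads (ratio 0.230, 0.204 to 0.259). Slc37a4, the glucose 6-phosphate transporter of the endoplasmic reticulum, had 869 and 356 reads (ratio 0.414), and Pgp, a phosphatase that removes glycolytic side products, 1660 and 889 (ratio 0.541). On the higher side were the Rab GTPase-activating proteins that hold GLUT4 vesicles inside the cell, Tbc1d1 with 170 and 335 reads (ratio 1.99, 1.65 to 2.41) and Tbc1d4 with 1463 and 2555 (ratio 1.76, 1.65 to 1.88). Gaa, the lysosomal enzyme that digests glycogen, had 1147 and 1794 reads (ratio 1.58, 1.47 to 1.70). Txnip, a glucose-responsive inhibitor of glucose uptake, had 14203 and 16798 reads (ratio 1.19), and Bsg, the chaperone of the lactate transporters, 12768 and 16043 (ratio 1.27), so both stayed below 1.5-fold. Hk3, a hexokinase of leukocytes, had 16 and 54 reads, beside the higher neutrophil and macrophage markers, and their part was not tested. For Phkg1, Ppp1r3a and Fbp2, reads per 1000 muscle marker reads were 2.07 and 2.98, 0.816 and 1.02, and 3.96 and 6.60, and the part of muscle RNA was not tested.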

How the data were processed

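RNA was extracted with Trizol and sequenced after TruSeq RNA Sample Preparation v2, which leaves strand unmarked, per the labels' protocols, so reads of overlapping genes cannot be separated. The authors deposited raw counts for each Ensembl gene. Reads went through Trimmomatic, HISAT2 and featureCounts on mm10, per the submitters' processing notes. How multi-mapping reads were treated, which annotation release was counted and which tool versions ran is not given in the sources used here. The deposited gene length, an other unit (bases), equals the merged exon length in all 54532 rows.

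Counts were scaled to CPM with TMM factors (edgeR 4.0.16). Log2 ratios used CPM plus 0.5, which understates changes of low genes, and folds used scaled counts alone. Intervals for ratios and shares are exact binomial (Clopper-Pearson, 95%), and PCR copies are not independent molecules. The low-value filter was an average of 1 CPM (12973 genes kept). The 38 genes, the lists, the 1.5-fold rule and the motifs were chosen with earlier results of these data known. Every gene of the set is named. Genes of the second list with a mean of at least 10 CPM and a call are named too, at most 8 by size. Ppp1r3a, Ppp1r3b, Ppp1r3d, Phkg1, Phkb, Gaa, Txnip, Bsg, Hk3, Slc2a12 and Eno2 were named after their values were seen. Shared sequence was counted as 50-base stretches of the longest GENCODE M21 transcript, on both strands. Alternatives were DESeq2 1.42.0 size factors, total counts, filters, pseudocounts and a fold of 2, and GC content and summed copies were added later. The rule was also run on simulated counts that held counting noise only, as the intervals assume. That run therefore says nothing about differences between mice. Software was R 4.3.3, Python 3.11.15, scipy 1.17.1 and matplotlib 3.10.9.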

Additional observations from a re-analysis of the deposited data

How the results depend on the processing

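The medians of the 38 genes, the muscle-type and the general isoforms stayed below 0 under every setting run, and no ratio of a gene counted as lower or higher crossed 1 under another scaling. With total counts the median of the 38 genes was -0.64 and that of the general isoforms -0.66, where all genes had a median of -0.13, and 21 genes were lower and 0 higher, against 28.5% of all genes lower. Without the muscle-type isoforms the median was -0.38. A filter of 10 CPM left 31 genes, with 15 lower and 0 higher, against 1552 of all 7745 genes lower. A pseudocount of 2 gave 15 lower and 0 higher, against 17.9% of all genes lower, and a muscle-type median of -2.04. At a threshold of 2-fold, 8 genes were lower and 0 higher, against 11.7% of all genes lower. Adjustment for GC content, added after the data were seen, gave a general isoform median of -0.68 and 16 lower, against 22.5% of all genes lower, since the calls of Slc16a1 and Gbe1 were lost and Gapdh was gained. Per length in place of reads, the shares of Pfkm were 18.5% and 13.2%, of Pgam2 12.5% and 4.52%, of Eno3 7.77% and 3.97%, and of Pygm 17.0% and 3.20%. DESeq2 size factors changed none of the 38 calls. Ratios of Slc2a3, Aldoc and Slc16a3 rest on fewer than 100 reads per library. With 1 library per group none could be left out. No paired analysis was possible because there was only 1 pooled library for control and 1 for knockout.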
